A study of Mus musculus with 6 samples.

Results

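The neuropeptide genes described here are Vip, Tac2, Tac1, Penk, Npy, Sst, Cck, Crh, Crhbp and Pdyn, 10 of the 32371 genes in the count table. They were taken by name, as genes of retinal peptides or, for Crhbp, of a peptide-binding protein. The set was chosen by name with the log2 fold changes between these same libraries already known, and Tac2 and Vip were its largest rises. Their differences between the groups are therefore given as a description, without a P value for any of these genes. Where calls at a threshold are counted for the set, the counts are descriptive and do not test it. Each name matched a single Ensembl identifier. The libraries came from C57BL/6J mice. An adeno-associated virus of serotype AAV2 was injected into the vitreous, carrying either GFP (control, 3 libraries) or Ezh2-Y726D, a catalytically dead form of the histone methyltransferase Ezh2 (3 libraries). Both groups received an optic nerve crush (ONC) 2 weeks after the injection, and 3 days later living cells positive for CD90.2 were sorted from dissociated retinas of adult mice. Transduction by this serotype is not limited to ganglion cells. The promoter that drove the transgenes and the number of mice per library are not given in the sources used here, so that the spread between libraries may be partly technical. There was no uninjured group, and the 3 GFP libraries were the control of every comparison.

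Neuropeptides are made as larger precursors, cut by prohormone convertases, stored in dense core vesicles and released to act on G protein–coupled receptors. In the retina most of them are products of amacrine cells, the inhibitory interneurons of the inner retina, where a peptide is usually carried by a subset of cells alongside GABA or glycine. Some ganglion cells carry peptides as well, and Npy is among the genes known to be induced in axotomized neurons. A change in such a gene in sorted cells can reflect the number of cells of a type or the RNA per cell, and bulk counts cannot tell these apart.

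Total counts per library ran from 9333244 to 23782520. GFP replicates 2 and 3 had 50.9% and 52.2% of their counts in the rRNA gene CT010467.1, against 2.55% to 16.1% in the other 4 libraries, so that low genes were counted least precisely there. Ezh2 itself had a log2 fold change of 1.46. Markers of the labelled ganglion cells were present, with Slc17a6, the vesicular glutamate transporter of these cells, at 80.6 CPM (counts scaled to a common library size) in GFP and 81.5 in Ezh2-Y726D. Other retinal cells were present too, as the amacrine gene Gad1 averaged 300.6 CPM in GFP and 486.7 CPM in Ezh2-Y726D. The summed level of 14 ganglion cell markers was 683.8 to 702.9 CPM in GFP and 655.2 to 703.1 CPM in Ezh2-Y726D.

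Of the peptide genes, 8 had promoter windows in the RefSeq table for GRCm38.p6, and Penk and Crh did not. The windows shown are those of Vip and Tac2, which had the largest differences, and of Npy, which came next, each as the 250 bases before the RefSeq start on the plus strand and outside the gene as annotated in GENCODE vM21. They lie at chr10:5638968-5639217 for Vip, at chr10:127724228-127724477 for Tac2 and at chr6:49822460-49822709 for Npy. Capitals mark TGACGTC or TGACG on either strand, the letters of the cAMP response element (CRE) without its last base and of its core.
Vip: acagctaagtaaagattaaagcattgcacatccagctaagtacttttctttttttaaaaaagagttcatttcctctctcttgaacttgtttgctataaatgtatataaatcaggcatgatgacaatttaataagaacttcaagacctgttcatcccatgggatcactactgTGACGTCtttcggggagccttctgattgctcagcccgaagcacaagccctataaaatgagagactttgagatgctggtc
Tac2: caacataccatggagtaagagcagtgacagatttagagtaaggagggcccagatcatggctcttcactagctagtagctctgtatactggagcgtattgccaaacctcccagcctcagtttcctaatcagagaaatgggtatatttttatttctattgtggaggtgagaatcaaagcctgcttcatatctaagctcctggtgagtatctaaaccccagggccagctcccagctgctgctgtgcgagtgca
Npy: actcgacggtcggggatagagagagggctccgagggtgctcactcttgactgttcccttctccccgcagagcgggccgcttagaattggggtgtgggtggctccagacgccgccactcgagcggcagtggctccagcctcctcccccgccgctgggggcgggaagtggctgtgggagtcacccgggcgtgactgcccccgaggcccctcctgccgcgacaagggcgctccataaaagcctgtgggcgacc

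The CRE, TGACGTCA, binds CREB-family factors and is textbook knowledge for the somatostatin and VIP genes. Over 32851 RefSeq promoters, searched on both strands in the same 250 bases, TGACGTCA was found in 1.55%, TGACGTC in 2.78% and TGACG in 17.8%, and each longer motif contains the shorter. Among the peptide genes the full element was found in Sst, starting 48 bases before the RefSeq start, and TGACGTC also in Vip, starting 79 bases before it. The core alone was found in Tac1, Cck and Crhbp. Of the 250 bases, 114 in Sst, 182 in Tac1 and 93 in Crhbp lie inside the gene as annotated in GENCODE vM21. The sites of Sst and Crhbp and the Tac1 site nearer the start fall in those bases. These letters were not found in the windows of Tac2, Npy and Pdyn. Each site follows with its neighbours, on the strand of the gene.
Vip, 79 bases before the start: gatcactactgTGACGTCtttcgggga
Tac1, 197 bases before the start: ccctaaaattgCGTCAtttcgaacaca
Tac1, 43 bases before the start: ctctacaggctCGTCAcgcctgagata
Sst, 48 bases before the start: gcctccttggcTGACGTCAgagagaga
Cck, 47 bases before the start: ctgctggactgCGTCAgcactgggtaa
Crhbp, 64 bases before the start: agctggaccctCGTCAttgccacgcat
The part of these sites in the levels of the genes was not tested.

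Values per library are counts and CPM of the library scaled by the trimmed mean of M values (TMM). After Ezh2-Y726D overexpression Vip, Tac2, Npy and Tac1 were higher, Crhbp and Penk were lower, and Pdyn, Cck and Sst overlapped between the groups. Crh was counted too rarely to compare. The counts that follow are circular, because the set was drawn up with this comparison known, and they test nothing. At an adjusted P under 0.05, 4 of the 9 peptide genes that passed the low-count filter were higher and 2 were lower, against 13.9% higher and 13.6% lower among the 18138 genes tested. The same 6 genes were those whose groups did not overlap, which held for 19.7% of all genes tested in the higher and 18.9% in the lower direction. All 6 also changed by more than 1.5-fold, a criterion that Penk, at 1.5-fold, barely met and that 2.52% of all genes tested met as higher and 5.5% as lower. For that reason nothing is read from these counts, and their excess over the shares of all genes tested is no evidence of enrichment.

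**Figure D1:**
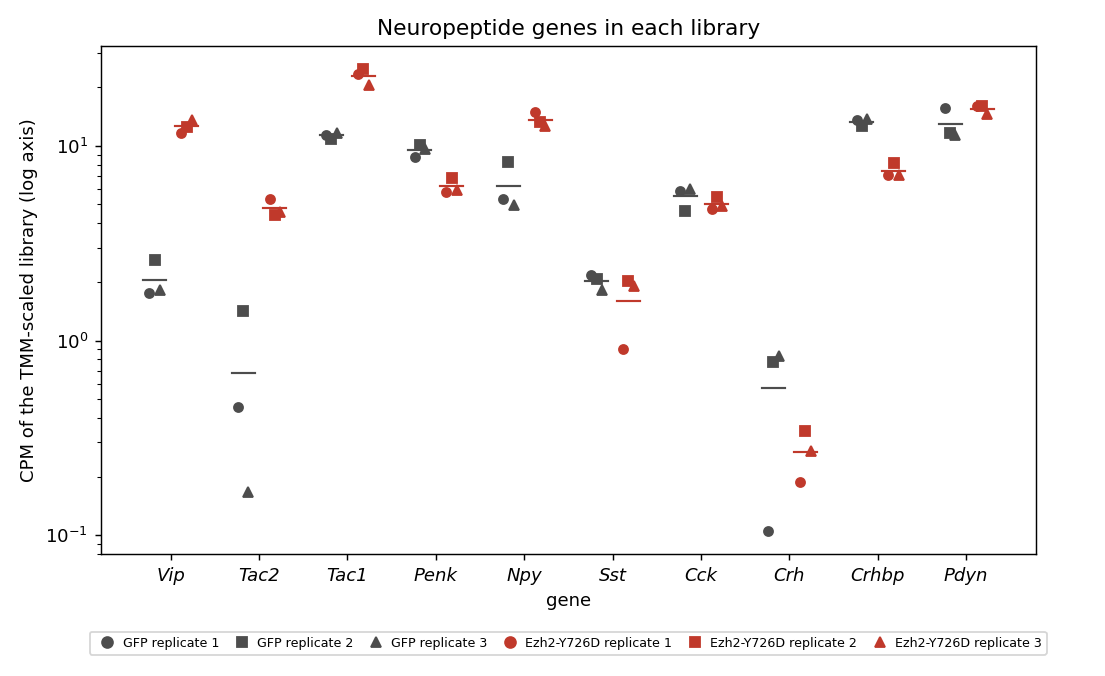
CPM of the TMM-scaled library (log axis) for the 10 peptide genes, with a point for each library, shaped by replicate number, and a line at the group mean. The Ezh2-Y726D points lie above all GFP points for Vip, Tac2, Tac1 and Npy and below them for Penk and Crhbp, and the remaining 4 genes overlap.

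Vip encodes vasoactive intestinal peptide, a marker of amacrine subsets (ENSMUSG00000019772, chromosome 10, 5639218 to 5647617). It had 50, 20 and 11 counts in GFP replicates 1, 2 and 3 and 308, 256 and 400 counts in the Ezh2-Y726D replicates. On the CPM scale this was 1.75, 2.58 and 1.82 against 11.6, 12.5 and 13.6. The lowest Ezh2-Y726D library was far above the highest GFP library, GFP replicate 2. The means were 2.05 ± 0.458 and 12.6 ± 0.99 CPM (SD, n = 3 each), and the log2 fold change of the fit was 2.70 ± 0.15 (SE), or 6.51-fold. It was 2.48 without GFP replicate 1 and 2.83 without GFP replicate 2, the extremes with 1 library left out.

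The tachykinins share a C-terminal motif and act on the receptors encoded by Tacr1, Tacr2 and Tacr3. Tac2, which encodes neurokinin B (ENSMUSG00000025400, chromosome 10, 127724478 to 127731768), had 13, 11 and 1 counts in the GFP replicates and 142, 90 and 135 in the Ezh2-Y726D replicates. Its CPM values were 0.456, 1.42 and 0.166 against 5.34, 4.41 and 4.58. The GFP values were few reads and spread widely, and all Ezh2-Y726D values lay above them. The log2 fold change was 2.99 ± 0.28 (SE), and it was 2.45 without GFP replicate 1 and 3.55 without GFP replicate 2, the extremes with 1 library left out. From the pooled counts, 367 against 25, the scaled ratio was 8.11 with an exact 95% interval of 5.41 to 12.7, which covers counting error only.

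Tac1, the precursor of substance P and neurokinin A (ENSMUSG00000061762, chromosome 6, 7554879 to 7565834), was counted well in every library. It was at 11.3, 10.8 and 11.6 CPM in GFP and at 23.4, 24.8 and 20.6 CPM in Ezh2-Y726D. The GFP libraries were nearly level, and every Ezh2-Y726D library stood well above them, with a log2 fold change of 1.02 ± 0.088 (SE). Within a library Tac2 had 0.0143 to 0.131 counts per Tac1 count in GFP and 0.178 to 0.228 in Ezh2-Y726D. This ratio needs no scaling between libraries, and its groups did not overlap.

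Npy encodes neuropeptide Y (ENSMUSG00000029819, chromosome 6, 49822710 to 49829507). Its level was 5.33, 8.26 and 4.98 CPM in GFP and 14.9, 13.2 and 12.7 CPM in Ezh2-Y726D. GFP replicate 2 stood above the other 2 GFP libraries and still below every Ezh2-Y726D library. The log2 fold change was 1.21 ± 0.13 (SE), and 1.00 to 1.37 with 1 library left out.

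Crhbp and Penk were lower. Crhbp encodes the secreted protein that binds corticotropin-releasing hormone and urocortin (ENSMUSG00000021680, chromosome 13, 95431371 to 95444924). Its level was 13.5, 12.6 and 13.8 CPM in GFP and 7.07, 8.18 and 7.08 CPM in Ezh2-Y726D. All Ezh2-Y726D libraries lay well below the GFP libraries. Its log2 fold change was -0.85 ± 0.10 (SE), so that GFP was 1.8-fold above Ezh2-Y726D. Within a library Npy had 0.361 to 0.653 counts per Crhbp count in GFP and 1.62 to 2.11 in Ezh2-Y726D. These are ratios of counts and not of levels, since the exonic length is 566 bases for Npy and 1800 bases for Crhbp. The groups of this ratio did not overlap, which follows from Npy being higher and Crhbp lower without overlap.

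Penk and Pdyn encode opioid precursors, proenkephalin and prodynorphin. Penk (ENSMUSG00000045573, chromosome 4, 4133531 to 4138819) was at 8.77, 10.1 and 9.62 CPM in GFP and 5.79, 6.81 and 5.96 CPM in Ezh2-Y726D. The groups did not overlap, and the log2 fold change was -0.59 ± 0.12 (SE). Since 14.3% of its exonic bases are shared with A830012C17Rik and the counting may have ignored the strand, its counts are uncertain. Pdyn (ENSMUSG00000027400, chromosome 2, 129686565 to 129699844) was at 15.7, 11.7 and 11.3 CPM in GFP and 16.0, 16.0 and 14.6 CPM in Ezh2-Y726D. GFP replicate 1 lay among the Ezh2-Y726D libraries, and the GFP libraries with the most rRNA were the low ones. The log2 fold change of Pdyn was 0.15 ± 0.098 (SE), 0.43 without GFP replicate 1 and 0.08 without GFP replicate 2, the extremes with 1 library left out.

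Sst and Cck did not separate. Sst, somatostatin (ENSMUSG00000004366, chromosome 16, 23889573 to 23890958), had 62, 16 and 11 counts in GFP and 24, 41 and 56 in Ezh2-Y726D, or 2.17, 2.06 and 1.82 CPM against 0.902, 2.01 and 1.90 CPM. Only Ezh2-Y726D replicate 1 stood below the rest. The log2 fold change of -0.40 ± 0.26 (SE) became -0.10 without that library and -0.57 without Ezh2-Y726D replicate 3, the extremes with 1 library left out. Cck, cholecystokinin (ENSMUSG00000032532, chromosome 9, 121489824 to 121495694), was at 5.89, 4.64 and 5.97 CPM in GFP and 4.74, 5.44 and 4.91 CPM in Ezh2-Y726D, with a log2 fold change of -0.17 ± 0.14 (SE).

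Crh, corticotropin-releasing hormone (ENSMUSG00000049796, chromosome 3, 19693401 to 19695396), was at the limit of the data. It had 3, 6 and 5 counts in GFP and 5, 7 and 8 counts in Ezh2-Y726D and did not pass the filter. Its CPM values were 0.105, 0.774 and 0.829 against 0.188, 0.343 and 0.271. GFP replicate 1 was the lowest library, and the other 2 GFP libraries were above all Ezh2-Y726D libraries. The ratio of pooled scaled counts was 0.79 with an exact 95% interval of 0.379 to 1.69. It depended on GFP replicate 1, without which it was 0.327 (0.15 to 0.757), and was 0.7 to 1.13 with any other library left out. Crhbp, in contrast, had 565 summed counts in GFP and 564 in Ezh2-Y726D. These are unscaled sums, and the ratio of its pooled scaled counts was 0.552.

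**Figure D2:**
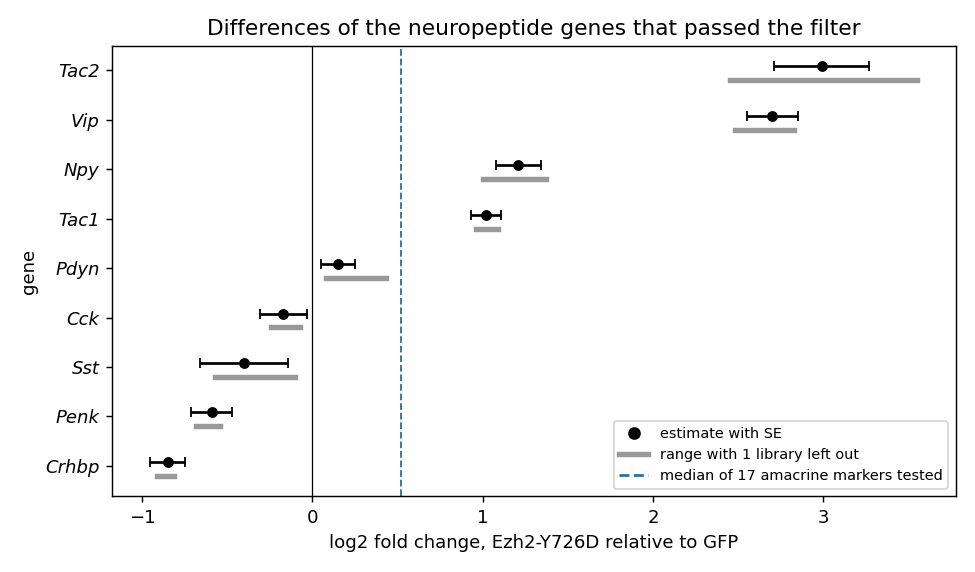
Log2 fold change of Ezh2-Y726D relative to GFP for the 9 peptide genes that passed the filter, with standard errors (bars), the range with 1 library left out (grey) and the median of the amacrine markers tested (dashed). Tac2 and Vip stand at 2.99 and 2.70, Npy and Tac1 at 1.21 and 1.02, and Crhbp at -0.85.

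Levels of different genes can be compared only per length. In RPKM (the TMM-scaled CPM divided by the gene's annotated exonic length in kilobases), Npy was highest in both groups, at 10.9 (8.79 to 14.6) in GFP and 24.1 (22.5 to 26.4) in Ezh2-Y726D. In GFP it was followed by Crhbp at 7.38, Penk at 5.80, Pdyn at 4.47, Cck at 4.22, Tac1 at 3.31 and Sst at 2.80 RPKM. The lowest were Vip, Tac2 and Crh at 0.603, 0.494 and 0.431 RPKM, whose ranges overlapped. In this order the ranges over libraries of Penk and Pdyn and those of Pdyn and Cck overlapped as well, and the other neighbours did not.

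In Ezh2-Y726D the order was different. Tac1 was second at 6.75 RPKM and Pdyn followed at 5.39. Next came Crhbp, Cck, Penk, Vip and Tac2 at 4.14, 3.85, 3.79, 3.69 and 3.46 RPKM, and each overlapped with its neighbour in this order. Thus Vip and Tac2, which were near the level of Crh in GFP, reached the level of Cck and Penk. Sst at 2.22 and Crh at 0.203 RPKM were lowest. The summed CPM of all 10 genes was 61.9 to 65.0 in GFP and 86.3 to 93.8 in Ezh2-Y726D. Of this sum Vip made up 2.7% to 3.97% in GFP and 12.9% to 15.7% in Ezh2-Y726D, and Crhbp 19.4% to 22.3% and 7.86% to 8.73%.

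Amacrine markers moved in the same libraries. Of 20 such genes, 17 were tested, and 12 were higher and none lower at an adjusted P under 0.05, against 13.9% and 13.6% of all genes tested (the median log2 fold change was 0.52, against 0.00 over all genes tested). Only Gjd2, at -0.09, had a negative estimate and did not pass. Their summed level was 1822 to 1954 CPM in GFP and 2721 to 2799 CPM in Ezh2-Y726D. Gad1, which encodes a GABA-synthesizing enzyme, rose by a log2 fold change of 0.69 ± 0.043 (SE, adjusted P = 6.68e-13 in edgeR's quasi-likelihood test). Slc6a9, the glycine transporter GlyT1, rose by 0.74 and Slc32a1, the vesicular transporter of GABA and glycine, by 0.70, with 30.2% and 24.9% of their exonic bases shared with other genes. Pax6 and Tfap2b, transcription factors of amacrine cells, rose by 0.43 and 0.54. Chat, Slc18a3 and Neurod6, markers of amacrine subtypes, had too few counts to be tested. The log2 fold changes of Vip, Tac2, Npy and Tac1 were above the amacrine median and those of the other 5 peptide genes tested below it, and the part of amacrine RNA in the differences was not tested.

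Relative to Gad1 in the same library, which needs no scaling between libraries, Vip had 5.59 to 8.36 counts per 1000 Gad1 counts in GFP and 24.1 to 28.0 in Ezh2-Y726D. Tac2 had 0.594 to 4.6 and 8.90 to 11.1, and Tac1 had 35.1 to 41.6 and 42.6 to 50.0. These 3 genes stayed higher without overlap, although Tac1 only narrowly. Since Gad1 itself rose, this scale lowers every gene alike, and the groups of 0.48% of all genes tested were higher and those of 83.8% lower without overlap on it. Npy had 17.0 to 26.8 and 26.2 to 31.1 counts per 1000 Gad1 counts and overlapped on this scale. Penk, Crhbp, Sst, Cck and Pdyn were lower in Ezh2-Y726D without overlap, as were most genes tested, and nothing is read from this. Crhbp, for example, had 41.0 to 49.3 in GFP and 14.6 to 16.5 in Ezh2-Y726D, and Sst 6.53 to 6.93 and 1.88 to 4.05.

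**Figure D3:**
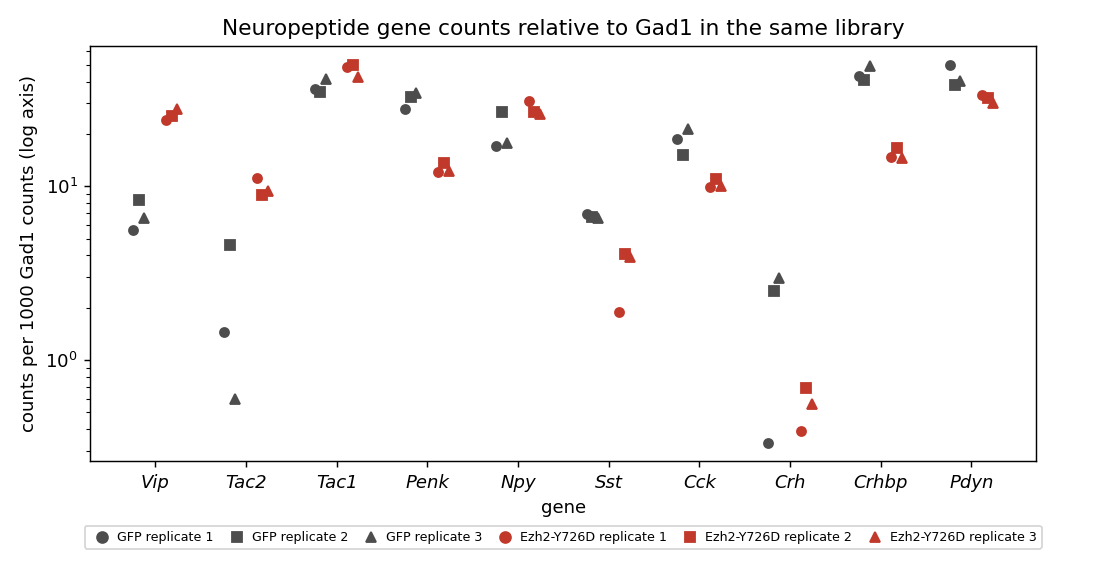
Counts of each peptide gene per 1000 Gad1 counts of the same library (log axis), with a point for each library. Vip, Tac2 and Tac1 lie higher in Ezh2-Y726D, Penk, Crhbp, Sst, Cck and Pdyn lower, as did 83.8% of all genes tested, and Npy and Crh overlap.

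Other cell types moved as well. Of the microglia and macrophage markers, 8 of 10 were lower and 1 was higher at an adjusted P under 0.05, with a summed level of 1268 to 1407 CPM in GFP and 523.5 to 610.6 CPM in Ezh2-Y726D. Of the bipolar cell markers 9 of 10 were lower and 1 higher, and all 8 cone markers were lower, against 13.9% of all genes tested that were higher and 13.6% that were lower. Of the endothelial and pericyte markers 6 of 8 were lower, and of the Müller glia markers 4 of 8 were lower and 1 higher. Of the rod markers 3 of 8 were higher and none lower, and of the 4 horizontal cell markers tested 1 was lower and none higher. These counts stand against the same shares of all genes tested. Of the 14 ganglion cell markers 2 were higher, 1 was lower and 11 did not pass, so that the higher calls were near their share over all genes tested. Pou4f1 and Thy1 were the 2 that were higher, with log2 fold changes of 0.41 and 0.13 (adjusted P = 0.00151 and 0.0315 in edgeR's test), and Isl1, at -0.58, was the 1 that was lower and is also among the bipolar markers counted as lower. Among those that did not pass, Rbpms was at 15.4 ± 1.42 CPM in GFP and 13.4 ± 0.958 in Ezh2-Y726D (SD, n = 3 each) and Pou4f2 at 1.76 ± 0.0908 and 1.33 ± 0.354. The part of these cells in the levels of the peptide genes was not tested.

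The receptors of these peptides were followed from a list of 22 genes, of which 15 passed the filter. At an adjusted P under 0.05, 6 were higher and 2 lower, against 13.9% and 13.6% of all genes tested, with a median log2 fold change of 0.35. All of these calls, like those of the amacrine markers and of the lists that follow, were lost when libraries were scaled by their totals with rRNA included. The log2 fold changes did not vanish with that scaling. Their median over all genes was 0.49, and the receptor genes Crhr1 and Cckbr were at 1.19 and -0.24. Several calls were close to the threshold, and with GFP replicate 1 left out only 2 receptors were higher. Without Ezh2-Y726D replicate 2 or 3 it was 3.

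Crhr1, the main receptor of corticotropin-releasing hormone, was at 10.6, 12 and 8.62 CPM in GFP and 17.4, 16.5 and 16.9 CPM in Ezh2-Y726D. All Ezh2-Y726D libraries were higher, with a log2 fold change of 0.68 ± 0.092 (SE, adjusted P = 1.07e-06 in edgeR's test), and the call held with each library left out. In the same libraries Crhbp, whose protein binds the hormone, was lower, and Crh, the gene of the hormone, was too low to compare. Crhr2 had a log2 fold change of 0.52 ± 0.22 (SE) and did not pass.

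Adcyap1r1, the PACAP receptor that also binds vasoactive intestinal peptide, rose from 3.86, 3.48 and 3.48 CPM to 7.22, 6.13 and 5.56 CPM. The log2 fold change was 0.76 ± 0.15 (SE, adjusted P = 2.33e-04 in edgeR's test), and the call was lost when all libraries were thinned to the shallowest. The other receptors of vasoactive intestinal peptide were not called higher. Vipr2 was at 48.1, 52.5 and 46.9 CPM in GFP and 45.0, 42.1 and 42.2 in Ezh2-Y726D, a log2 fold change of -0.19 (adjusted P = 0.0163 in edgeR's test), which no longer passed when GFP replicate 2 or Ezh2-Y726D replicate 2 or 3 was left out. Vipr1 had a log2 fold change of -0.13 and did not pass.

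Of the tachykinin receptors, Tacr3, the receptor of neurokinin B, had a log2 fold change of 0.35 ± 0.11 (SE, adjusted P = 0.0167 in edgeR's test), with 7.47, 7.74 and 7.13 CPM in GFP and 9.70, 10.4 and 8.74 in Ezh2-Y726D. The groups did not overlap, but the call was lost without GFP replicate 1 or Ezh2-Y726D replicate 2. Tacr1, the receptor of substance P, had 0.19 ± 0.092 (SE) and did not pass, and Tacr2 was too low to test.

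Cckbr, a receptor of cholecystokinin, fell from 4.81, 4.77 and 5.64 CPM to 3.53, 2.65 and 2.85 CPM. Its log2 fold change was -0.71 ± 0.16 (SE, adjusted P = 0.00117 in edgeR's test), and the call held with each library left out. Its partner Cckar was counted too rarely to test. Among the somatostatin receptors, Sstr1 and Sstr2 had log2 fold changes of 0.73 and 0.36 with adjusted P values of 0.0186 and 0.039 in edgeR's test. Sstr1 lost its call without GFP replicate 1 or Ezh2-Y726D replicate 3, and Sstr2 lost its call without GFP replicate 1 or 3 or Ezh2-Y726D replicate 2 or 3. Sstr3 (0.30) did not pass, and Sstr4 and Sstr5 were not tested.

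Among the neuropeptide Y receptors Npy4r had 0.96 (adjusted P = 0.0493 in edgeR's test), a call that was lost whichever library was left out. It was also lost with RLE size factors (0.96), with DESeq2 (0.91) and without the low-count filter (0.97). Npy1r had 0.94 ± 0.36 (SE) and did not pass, and Npy2r and Npy5r were too low to test. Of the opioid receptors Oprd1 had -0.76 and Oprm1 0.22, with SEs of 0.37 and 0.28, and neither passed. Oprk1, the receptor of dynorphin, was not tested.

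A list of 53 other peptide precursors was followed in the same way. Of these, 44 had an identifier in the table and 17 passed the filter, and 3 were higher and 2 lower at an adjusted P under 0.05, against 13.9% and 13.6% of all genes tested. Cartpt, the precursor of CART peptides and a marker of direction-selective ganglion cells, rose from 53.0, 44.8 and 46.1 CPM to 73.2, 84.8 and 94.5 CPM (log2 fold change 0.77 ± 0.073, SE, adjusted P = 2.18e-09 in edgeR's test). Gal, galanin, was low in both groups, at 0.807, 1.16 and 1.33 CPM in GFP and 2.10, 1.72 and 1.73 in Ezh2-Y726D. Its log2 fold change was 0.94 (adjusted P = 0.00978 in edgeR's test), and its call was lost without GFP replicate 1. Ghrh, at 11 and 53 summed counts, had 1.40 (adjusted P = 0.0192 in edgeR's test) and lost its call without GFP replicate 1, 2 or 3 or without Ezh2-Y726D replicate 2 or 3.

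Adcyap1, the precursor of PACAP, which is found in melanopsin ganglion cells, fell from 15.4, 18.7 and 16.8 CPM to 13, 11.3 and 10.2 CPM (log2 fold change -0.52 ± 0.10, SE, adjusted P = 1.76e-04 in edgeR's test). Adcyap1 thus moved opposite to Vip, a member of the same peptide family, and to its receptor Adcyap1r1. Nppb, at 33 and 28 summed counts, had -1.08 (adjusted P = 0.0333 in edgeR's test) and lost its call without GFP replicate 2 or 3 or Ezh2-Y726D replicate 2; in the other 3 such fits it did not pass the filter on low counts. Nmb, for neuromedin B, had 0.52 ± 0.35 (SE) and did not pass, and Pnoc was not tested.

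The genes that process and store peptides differed little in size. All 19 of the list were tested, and 12 were higher and 1 lower at an adjusted P under 0.05, against 13.9% and 13.6% of all genes tested, with a median log2 fold change of 0.15 and a range of -0.25 to 0.47. None reached 1.5-fold. Ptprn2, a membrane protein of dense core vesicles, rose most, from 95.5 ± 8.91 to 133.6 ± 2.03 CPM (SD, n = 3 each, adjusted P = 7.84e-09 in edgeR's test). The convertases encoded by Pcsk1 and Pcsk2 had 0.32 and 0.14, and Pam, the enzyme that amidates peptides, 0.25. Ptprn, Chga and Scg5 rose by 0.30, 0.29 and 0.28, Vgf by 0.23 and Chgb and Scg2, granins of the vesicle core, by 0.20 and 0.15. The call of Pcsk2 was lost without GFP replicate 1, 2 or 3 or Ezh2-Y726D replicate 2, that of Vgf without GFP replicate 2 and that of Scg2 without Ezh2-Y726D replicate 2. Cpe, a carboxypeptidase, had 0.05 and did not pass, and Cpd, a related carboxypeptidase, fell by 0.25 on the log2 scale.

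Of 12 peptidases that degrade peptides, 11 were tested, with 1 higher and 2 lower, against 13.9% and 13.6% of all genes tested. Anpep, aminopeptidase N, fell from 6.52 ± 0.418 to 3.41 ± 0.697 CPM (SD, n = 3 each, log2 fold change -0.92, adjusted P = 2.58e-05 in edgeR's test), and Dpp4 had a log2 fold change of -0.55 (adjusted P = 3.04e-04). Ece2 had 0.67 (adjusted P = 0.0116 in edgeR's test), shares 57.5% of its exonic bases with other genes, and lost its call without Ezh2-Y726D replicate 3. Mme, neprilysin, was too low to test.

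**Figure D4:**
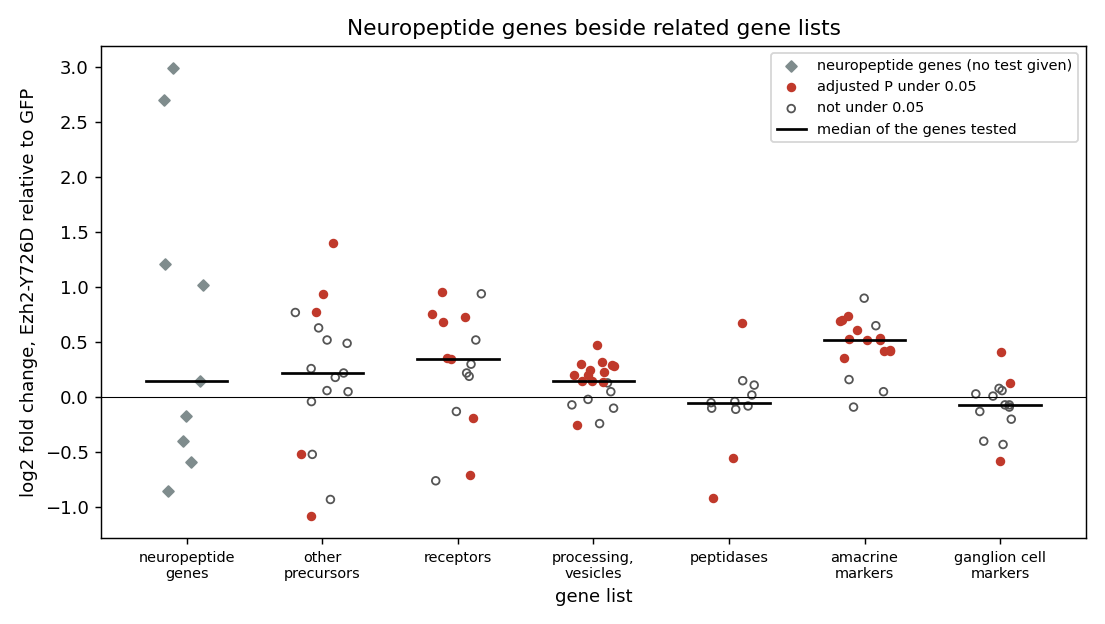
Log2 fold change of Ezh2-Y726D relative to GFP for each gene tested in 7 lists, with red points at an adjusted P under 0.05, open points otherwise, grey diamonds for the peptide genes (no test given) and a line at each list's median. The peptide genes span -0.85 to 2.99, whereas the processing and vesicle genes span -0.25 to 0.47.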

How the data were processed

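Raw counts per gene were deposited by the authors as 1 table of 6 libraries, prepared with a kit for stranded total RNA. Alignment with STAR 2.7.0d and the build GRCm38 are named in the submitters' processing notes. The counting tool, annotation and strand setting are not given in the sources used here. Of 32371 identifiers, 32325 had a symbol and 32342 were found in GENCODE vM21, which gave coordinates, exonic lengths and overlaps. Counts were scaled by TMM and tested with edgeR 4.0.16 (quasi-likelihood test, R 4.3.3, filterByExpr with a minimum of 10 counts and a total of 15, Benjamini-Hochberg adjustment over 18138 genes). Log2 fold changes come from this fit with a prior count of 0.125. Each standard error (SE) is the absolute log2 fold change over the root of its F statistic. For 1 gene, 3 against 3 libraries allow no exact permutation P under 0.1. Exact 95% intervals of pooled ratios cover counting error only.

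The members and lists were chosen with earlier results of these data known. Named are the 10 peptide genes, Ezh2, CT010467.1, the receptors tested, and, of the other lists, up to 8 genes with the largest log2 fold changes at an adjusted P under 0.05 plus a fixed set of defining genes. Not all of those are printed. Gjd2, Isl1 and the genes named as too low to test were added after their values were seen. Alternatives were RLE size factors, library totals with and without CT010467.1, DESeq2 1.42.0, other filters, a replicate block, thinning and leaving out each library. A fit with GFP replicate 1 as the only GFP library, the shares per Gad1 count and the Crh ratio with each library left out were added after the data were seen.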

Additional observations from a re-analysis of the deposited data

How the results depend on the processing

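Scaling by library totals moved the median over all genes tested to 0.49 (log2), and only 46 genes were higher and 19 lower; the counts of the receptors, other precursors, processing genes, peptidases and amacrine markers were then 0 in either direction, and the other marker lists were not counted under the alternatives. Vipr2 and Cpd had the opposite sign with that scaling (0.32 and 0.26), both below that median, and Sst and Cck were at 0.06 and 0.32. Thinning every library to 4460732 counts left 1670 genes higher. The receptors higher numbered 2 with DESeq2 and 2 after thinning, and those lower 1 with DESeq2 and 1 with GFP replicate 1 as the only GFP library. The other precursors gave 1 higher and 1 lower with DESeq2, with at least 10 counts in every library and after thinning, and 1 lower with GFP replicate 1 alone. No peptidase (0) was higher with DESeq2, after thinning, or with GFP replicate 1 alone. With 1 library left out, 1919 to 2314 genes were higher and 1853 to 2288 lower. The receptors gave 2 to 6 higher and 1 to 2 lower, the other precursors 1 to 3 and 1 to 2, the processing genes 10 to 13 and 1, the peptidases 0 to 1 and 2 to 3, and the amacrine markers 11 to 13 and 0. The cause was not tested. Vip, Tac2, Npy and Tac1 were higher and Crhbp and Penk lower in every alternative that gave a value, but with library totals Penk was at -0.10 and Crhbp at -0.35. With GFP replicate 1 alone the spread came from the Ezh2-Y726D libraries, and the lone library was assumed to vary like them.

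The replicate numbers are shared by the groups, but same-numbered libraries deviated together only weakly (r = 0.0723, 0.0342 and 0.0238), each library correlating best with its own number, so that they were not treated as pairs. With the replicate number as a block, 2675 genes were higher and 2547 lower, and Sstr2 (0.28), Npy4r (1.01) and Ghrh (1.25) no longer passed, while Pcsk1n (0.15) did. Depth limits Crh, Tac2 and the receptors under 1 CPM.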
